A study of Homo sapiens with 12 samples.

Results

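The JNK and p38 kinase cascade was taken as 10 genes chosen by symbol: the MAP kinase kinase kinases MAP3K4, MAP3K7 and MAP3K11, the MAP kinase kinases MAP2K3, MAP2K4 and MAP2K7, the MAP kinases MAPK8, MAPK9 and MAPK14, and the effector kinase MAPKAPK2. The platform's gene table used here named 19 probes for 8 of these 10 genes, out of 47322 probes on the array. MAPK14, the p38 alpha gene, and MAP2K7, a JNK-activating kinase gene, were not analysed here because no probe carried their names. Of the 19 probes 11 were detected often enough to be tested, and all 8 genes had at least 1 such probe, among 11835 genes tested in all.

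The arrays came from TC71 cells, an established Ewing sarcoma line, sampled at 48 h in 3 groups of 4 arrays numbered 1 to 4. In the first group the cells carried a miR-130b mimic, a synthetic RNA that raises the activity of this microRNA. In the second they carried a miR-130b anti-miR, an inhibitor whose chemistry the labels do not give. The scramble group carried a scrambled control RNA. All 12 arrays share the cell line and the time point, and the labels name 1 line only and no separate cultures, so p-values measure the spread between these samples, which may be technical.

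Stress-activated MAP kinases work in 3 tiers. A MAP3K phosphorylates a MAP2K, which phosphorylates a MAP kinase of the JNK or p38 type. JNK then phosphorylates JUN and related AP-1 subunits, and p38 works largely through kinases such as MAPKAPK2. The GTPase CDC42 can switch on several MAP3Ks, which places this cascade between CDC42 and AP-1, and ARHGAP1 is a protein that turns CDC42 off. The arrays measure transcripts only, and kinase activity depends on phosphorylation, which was not measured.

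The reagent is defined by its seed, so the mature miR-130b sequences are shown with the seed (bases 2 to 8 from the 5′ end) in capitals. The sequences are from RefSeq (GRCh38.p14), where miR-130b-3p lies at chr22:21653354-21653375 and miR-130b-5p at chr22:21653316-21653336 on the plus strand, within the microRNA gene MIR130B, and the labels do not state the arm of the mimic. Among the 2370 mature microRNAs searched, the arm miR-130b-3p shares its seed with 5 others, miR-301a, miR-301b and miR-454 among them. MicroRNAs outside that set were not counted, so the family may be larger.
hsa-miR-130b-3p: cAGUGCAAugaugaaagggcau
hsa-miR-130b-5p: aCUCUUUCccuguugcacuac
hsa-miR-301a-3p: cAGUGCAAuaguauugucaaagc
hsa-miR-301b-3p: cAGUGCAAugauauugucaaagc
hsa-miR-454-3p: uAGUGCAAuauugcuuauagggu

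Between 19008 and 20544 probes were detected per array, and within each group the arrays correlated with each other at 0.990 to 0.994. The median raw intensity was 84.5 to 87.6 on mimic arrays, 72 to 82.5 on anti-miR arrays and 85.5 to 88.8 on scramble arrays. ARHGAP1, which the study names as a direct target of the microRNA, averaged 8.15 ± 0.38 log2 units on mimic arrays and 8.73 ± 0.02 on scramble arrays (SD, n = 4 each), and limma called it lower (-0.58 ± 0.14, adjusted p = 0.0149). On anti-miR arrays ARHGAP1 averaged 8.92 ± 0.06 (SD, n = 4), and all 4 lay above every scramble array. That change of 0.19 ± 0.14 did not pass in limma (adjusted p = 0.509). Mimic minus anti-miR was -0.77 ± 0.14 for ARHGAP1 (adjusted p = 0.00382). The MIR130B probe was detected on 0 arrays and checks neither reagent. All 8 Ewing sarcoma markers that had a probe, among them CD99, NKX2-2 and FLI1, were detected on all 12 arrays, while all 5 endothelial markers, the blood markers PTPRC, CD3E and HBB and the epithelial markers CDH1 and KRT19 were detected on 0. KRT8 was detected on 12 arrays, EPCAM on 10, CD14 on 9 and ITGAM on 5. The 2 epithelial markers tested, KRT8 and EPCAM, summed to 112 to 165 on mimic arrays, 80.9 to 117 on anti-miR arrays and 93.8 to 106 on scramble arrays, so mimic and scramble arrays did not overlap, and 1 of the 2 was called higher under the mimic against both other groups. The 2 blood markers tested summed to 71.3 to 77.8 on mimic arrays, 64.2 to 82.8 on anti-miR arrays and 76.5 to 83.0 on scramble arrays, with 0 called by limma. The summed intensity of the Ewing markers was 30673 to 33433 on mimic arrays, 26267 to 30309 on anti-miR arrays and 27245 to 29052 on scramble arrays, with 1 marker higher and 1 lower under the mimic. Of 9 fibroblast markers 6, among them COL1A1, COL3A1 and THY1, were detected on all 12 arrays, LUM on 7, COL1A2 on 3 and PDGFRA on 0. The 7 fibroblast markers tested summed to 2081 to 2674 on mimic arrays, 2002 to 2482 on anti-miR arrays and 2178 to 2533 on scramble arrays. These sums overlapped, while 2 of the 7 were called higher and 1 lower under the mimic against both other groups. The part of these markers in the results on the cascade was not tested.

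Under the mimic 4 of the 8 cascade genes rose and 1 fell against scramble, and 3 did not pass. The genes that rose were MAP2K4, MAPKAPK2, MAPK8 and MAP3K7, with gains of 1.22-fold to 1.52-fold, and the gene that fell was MAP3K4. With 1 array left out the count of called cascade genes went down to 2 (without mimic 1 or mimic 4) or 3 (without scramble 1, 2 or 3), and under median scaling to 2. Across all genes tested 16.2% were called in this comparison, 7.44% higher and 8.76% lower, with a median size of 0.45 on the log2 scale among called genes. The median log2 change of the 8 genes was 0.28, against 0.00 over all genes, whose middle 50% lay between -0.16 and 0.16. At an unadjusted p under 0.05 the counts were 6 of the 8 genes and 32.4% of all genes. In 6 of the 8 genes every mimic array lay on 1 side of every scramble array (5 above, 1 below), as did 21% of all genes (10.4% above, 10.6% below). The cascade genes were chosen with earlier results of these data known. Their counts and medians beside those of all genes, here and below, are therefore a description only. Whether the cascade stands out from all genes was not tested. Levels below are log2 normalized intensities of 1 probe per gene, the brightest one detected. Each change is a difference of group means on the log2 scale (n = 4 each) with the moderated standard error from limma. Every adjusted p is from limma, with Benjamini-Hochberg adjustment over all genes, and a gene was called when it was under 0.05. In whole-culture RNA, fewer expressing cells and less RNA per cell cannot be told apart.

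**Figure D1:**
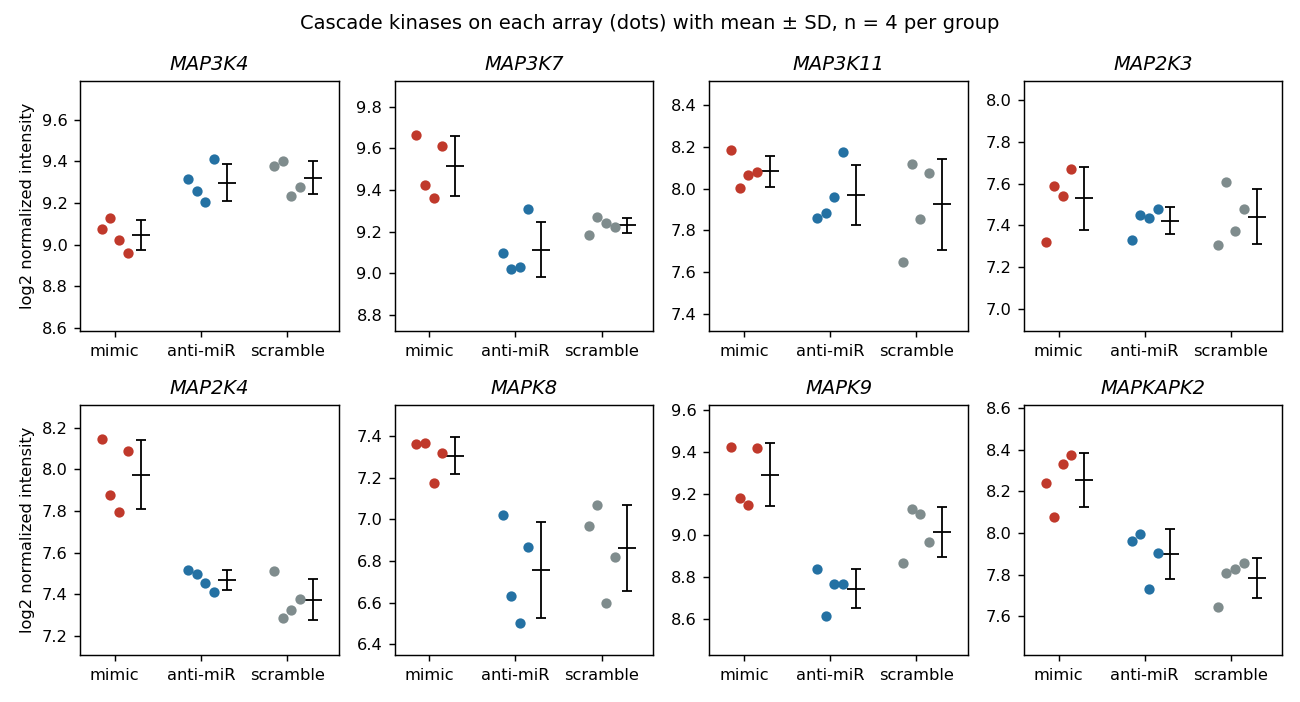
Log2 normalized intensity (y axis, all panels spanning the same range of log2 units) of the 8 measured cascade kinases on each of the 12 arrays; dots are arrays, and bars are the mean ± SD of the 4 arrays of a group. In the panels of MAP3K7, MAP2K4, MAPK8, MAPK9 and MAPKAPK2 all 4 mimic arrays lie above all scramble arrays, and in the MAP3K4 panel all 4 lie below.

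At the top tier MAP3K7 and MAP3K4 moved in opposite directions. MAP3K7 encodes TAK1, the kinase through which TGF-beta and interleukin 1 receptors reach both JNK and p38. It read 9.66, 9.42, 9.36 and 9.61 on mimic arrays 1 to 4, against 9.18, 9.27, 9.24 and 9.22 on scramble arrays. The 4 mimic arrays were the highest, with arrays 1 and 4 above the other two. MAP3K7 rose by 0.29 ± 0.09 (adjusted p = 0.0491), just inside the threshold. The call was lost in 14 of 24 alternatives, with adjusted p-values of 0.0547 to 0.129: 6 alternative settings, without any 1 of the 4 scramble arrays, without mimic 1 or mimic 4, and without anti-miR 1 or 3, while the value stayed between 0.24 and 0.36.

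MAP3K7 has a dimmer probe, detected on all 12 arrays, that gave a larger change. It read 7.64, 7.33, 7.42 and 7.53 on mimic arrays, 6.98, 6.86, 7.08 and 6.92 on anti-miR arrays, and 7.12, 7.17, 6.96 and 6.96 on scramble arrays. Every mimic array was again above every array of the other groups. When limma was fitted to all 20768 probes kept, of which 12.8% were called, the dimmer probe rose by 0.43 ± 0.10 (adjusted p = 0.013), and the brighter probe gave 0.29 ± 0.10 (adjusted p = 0.0644).

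MAP3K4, which encodes the MAP3K that GADD45 proteins bind and activate, was the cascade gene that fell. Its levels were 9.07, 9.13, 9.02 and 8.96 on mimic arrays, against 9.38, 9.40, 9.23 and 9.28 on scramble arrays. No mimic array reached the lowest scramble array. The change was -0.28 ± 0.08 (adjusted p = 0.0309). The call was lost under median scaling (-0.32, adjusted p = 0.0627) and without scramble 1, scramble 2, mimic 1, mimic 3 or mimic 4 (adjusted p 0.0553 to 0.0875). Its other probe was detected on 0 arrays.

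MAP3K11 encodes MLK3, a mixed-lineage kinase that binds CDC42 directly and feeds the JNK arm. It read 8.18, 8.01, 8.06 and 8.08 on mimic arrays, against 7.65, 8.12, 7.86 and 8.08 on scramble arrays. The groups overlapped, since scramble 2 was higher than 3 of the 4 mimic arrays and scramble 1 was low. The difference was 0.16 ± 0.11 (adjusted p = 0.336), and its 95% confidence interval ran from -0.07 to 0.39.

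In the middle tier MAP2K4 rose and MAP2K3 did not pass, while MAP2K7 was not measured. MAP2K4 encodes MKK4, which phosphorylates JNK and, less strongly, p38. It read 8.14, 7.87, 7.79 and 8.09 on mimic arrays, against 7.51, 7.28, 7.32 and 7.38 on scramble arrays. The lowest mimic array was above the highest scramble array. The gene rose by 0.60 ± 0.09 (adjusted p = 0.0019), 1.52-fold, and was called in all 24 alternatives with values of 0.47 to 0.66.

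The unscaled raw intensities of the same MAP2K4 probe were 335.9, 309.5, 277.1 and 318.1 on mimic arrays, against 289.4, 222.4, 222.0 and 225.0 on scramble arrays. Before arrays were normalized, scramble 1 therefore lay within the mimic range. The dimmer MAP2K4 probe read 6.79, 6.81, 6.66 and 6.75 log2 units on mimic arrays, against 6.57, 6.43, 6.27 and 6.36 on scramble arrays. It also showed no overlap, and it rose by 0.34 ± 0.11 in the fit of all probes (adjusted p = 0.0447).

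MAP2K3 encodes MKK3, an activator of p38 that does not act on JNK. Its only probe detected on more than 2 arrays read 7.32, 7.59, 7.54 and 7.67 on mimic arrays, against 7.30, 7.61, 7.37 and 7.48 on scramble arrays. These ranges lay almost on top of each other. The difference was 0.09 ± 0.09 (adjusted p = 0.562), with a 95% confidence interval of -0.12 to 0.29. The other 5 MAP2K3 probes were detected on 0 to 2 arrays, with raw intensities of 55.8 to 105.4.

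MAP2K4 and MAP2K3, the MAP2K genes of the cascade measured here, lie on chromosome 17. The 250 bases before their annotated starts are shown because AP-1 lies downstream of this cascade. The sequences are from RefSeq (GRCh38.p14), plus strand, chr17:12020627-12020876 for MAP2K4 and chr17:21284461-21284710 for MAP2K3, and capitals mark an AP-1 motif (TGANTCA on either strand).
MAP2K4: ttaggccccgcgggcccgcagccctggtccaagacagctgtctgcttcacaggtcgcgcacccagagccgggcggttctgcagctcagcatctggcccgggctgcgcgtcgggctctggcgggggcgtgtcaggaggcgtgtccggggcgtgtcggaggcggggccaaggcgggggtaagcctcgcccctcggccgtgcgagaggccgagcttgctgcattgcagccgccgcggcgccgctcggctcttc
MAP2K3: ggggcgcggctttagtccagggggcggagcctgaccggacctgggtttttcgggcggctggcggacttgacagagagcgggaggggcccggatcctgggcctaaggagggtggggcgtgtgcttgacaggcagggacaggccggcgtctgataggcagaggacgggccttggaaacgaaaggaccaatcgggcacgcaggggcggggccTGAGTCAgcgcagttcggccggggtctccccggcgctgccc
MAP2K3 has 2 annotated starts in this table, and its other entry, not printed, holds no match. In windows from 250 bases before to 50 bases after a start, the AP-1 motif was in 1 of 12 entries of 9 cascade genes and in 7.71% of all 35116 entries. The cyclic AMP response motif TGACGTCA was in 0 of the 12 and in 1.85% of all entries. The ETS motif CCGGAAGT was in 2 of the 12 (MAPK9 and MAP3K7) and in 4.14% of all entries, and the repeat GGAAGGAA in 2 of the 12 (MAPK9 and MAPK14) and in 3.67%. The MAPK9 matches lie in its entry at chr5:180280559-180280858, inside the gene. Its entry at the start of the gene, chr5:180292034-180292333, holds no match. All motif hits are letter matches in a short window and say nothing of binding.

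At the MAP kinase tier MAPK8 rose and MAPK9 missed the threshold. MAPK8 encodes JNK1. It read 7.36, 7.37, 7.18 and 7.32 on mimic arrays, against 6.97, 7.07, 6.60 and 6.82 on scramble arrays. The scramble arrays were more scattered than the mimic arrays but stayed below them. MAPK8 rose by 0.44 ± 0.12 (adjusted p = 0.0259), 1.36-fold. The call was lost under median scaling (0.37, adjusted p = 0.0878) and without scramble 3, mimic 1 or mimic 4 (adjusted p 0.0791, 0.0608 and 0.059).

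The probe that stands for MAPK8 is annotated to a cDNA clone record, and the probe annotated to a RefSeq transcript of MAPK8 was detected on 0 arrays, with raw intensities of 66.4 to 79.8. Raw intensities of the detected probe were 220.2, 234.2, 199.0 and 211.4 on mimic arrays, 177.7, 153.2, 132.3 and 150.6 on anti-miR arrays, and 216.6, 199.7, 156.8 and 170.7 on scramble arrays. Before normalization scramble 1 and 2 thus reached into the mimic range, and all 4 anti-miR arrays were below it.

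MAPK9 encodes JNK2, the other JNK isoform that most tissues express. It read 9.42, 9.18, 9.14 and 9.42 on mimic arrays, 8.84, 8.61, 8.76 and 8.77 on anti-miR arrays, and 8.87, 9.13, 9.10 and 8.97 on scramble arrays. The scramble arrays lay between the mimic arrays and the anti-miR arrays, with no overlap on either side. Against scramble the change was 0.28 ± 0.10 under the mimic (adjusted p = 0.0631) and -0.27 ± 0.10 under the anti-miR (adjusted p = 0.196), and neither passed. Under the mimic it passed in 4 of 24 alternatives, with adjusted p-values of 0.0344 to 0.0458.

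The dimmer MAPK9 probe did not show this order. It read 7.06, 7.27, 6.73 and 7.21 on mimic arrays, 7.0, 6.75, 7.15 and 6.98 on anti-miR arrays, and 6.97, 7.17, 6.84 and 6.76 on scramble arrays. All 3 groups overlapped on it. In the fit of all probes it gave 0.13 ± 0.13 for mimic minus scramble (adjusted p = 0.544) and 0.10 ± 0.13 for mimic minus anti-miR (adjusted p = 0.655).

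MAPKAPK2, the effector tier, encodes MK2, the p38 substrate that controls the stability of inflammatory mRNAs through ZFP36 (tristetraprolin) and phosphorylates HSPB1. It read 8.24, 8.08, 8.33 and 8.37 on mimic arrays, against 7.64, 7.81, 7.83 and 7.86 on scramble arrays. The lowest mimic array was above the highest scramble array. The gene rose by 0.47 ± 0.09 (adjusted p = 0.00525), 1.39-fold, and was called in all 24 alternatives with values of 0.39 to 0.53. Its other probe was detected on 0 arrays.

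**Figure D2:**
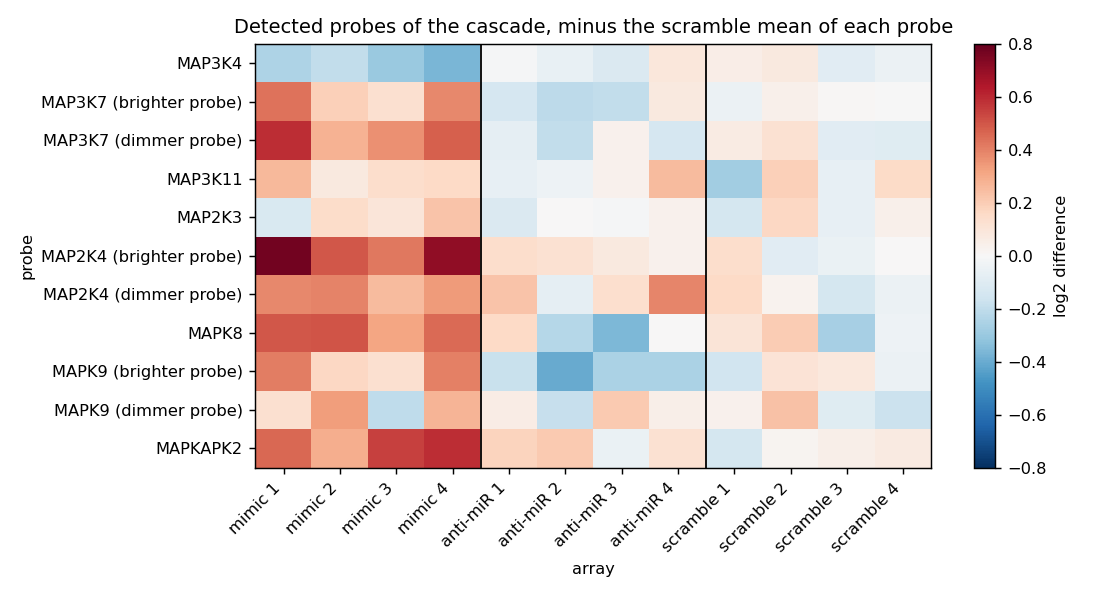
Log2 difference of each array (x axis) from the mean of the 4 scramble arrays for the 11 detected probes of the cascade (y axis); red is higher and blue lower, so the scramble columns centre on 0 by construction. MAP3K7, MAP2K4, MAPK8 and MAPKAPK2 rows are red on all 4 mimic arrays and the MAP3K4 row is blue on them, while the dimmer MAPK9 probe changes sign among the mimic arrays.

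The anti-miR called 0 of the 8 cascade genes against scramble. Across all genes it called 0.186%, 0.0929% in each direction, and 16.6% had an unadjusted p under 0.05, as did 1 of the 8 cascade genes, MAPK9. The median log2 change of the 8 genes was -0.02, equal to that of all genes, and single genes ranged from -0.27 to 0.11. Groups did not overlap for 1 of the 8 genes, MAPK9, against 8.94% of all genes (3.5% higher, 5.44% lower). The anti-miR and mimic comparisons share the scramble arrays, so their values are given side by side only.

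For the other 7 genes the anti-miR arrays overlapped the scramble arrays. MAP2K4 read 7.52, 7.5, 7.45 and 7.41 on anti-miR arrays, a difference of 0.10 ± 0.09 with a 95% confidence interval of -0.10 to 0.29. MAPK8 read 7.02, 6.63, 6.51 and 6.87, a difference of -0.11 ± 0.12 with an interval of -0.37 to 0.16. MAPKAPK2 read 7.96, 8.0, 7.73 and 7.90, a difference of 0.11 ± 0.09 with an interval of -0.08 to 0.31. The intervals of MAP2K4 and MAPKAPK2 reach up to about the size of the smaller mimic effects, and that of MAPK8 reaches down to a fall of that size.

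The top tier did not pass under the anti-miR either. MAP3K7 read 9.10, 9.02, 9.03 and 9.31, with 3 of 4 arrays below every scramble array, and its difference was -0.12 ± 0.09 (adjusted p = 0.548). MAP3K4 read 9.31, 9.26, 9.21 and 9.41, a difference of -0.02 ± 0.08 (adjusted p = 0.908). MAP3K11 (7.86, 7.88, 7.96 and 8.18) and MAP2K3 (7.33, 7.45, 7.43 and 7.48) differed from scramble by 0.04 and -0.02.

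The direct comparison of mimic with anti-miR tests whether the reagents differ. In it 5 of the 8 genes were higher under the mimic, 1 was lower and 2 did not pass, where 15% of all genes were called (7.85% higher and 7.19% lower). At an unadjusted p under 0.05 the counts were 6 of the 8 genes and 31.1% of all genes. The median log2 difference of the 8 genes was 0.38, against 0.01 over all genes. In 6 of the 8 genes the groups did not overlap (5 higher, 1 lower), as in 20% of all genes (10.9% higher, 9.1% lower).

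Of the 8 genes, MAPK8 and MAPK9 showed the largest differences between the reagents. MAPK8 was higher under the mimic by 0.55 ± 0.12 (adjusted p = 0.0103) and MAPK9 by 0.55 ± 0.10 (adjusted p = 0.00317), each 1.46-fold. For MAPK9 this is the comparison in which the brighter probe passed, and the dimmer probe did not. MAP2K4 was higher by 0.50 ± 0.09 (adjusted p = 0.00376), although its dimmer probe gave 0.17 ± 0.11 and did not pass (adjusted p = 0.294).

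MAP3K7 was higher under the mimic than under the anti-miR by 0.40 ± 0.09 (adjusted p = 0.012), and in the fit of all probes both of its probes passed (0.40 and 0.52, adjusted p = 0.0172 and 0.00531). MAPKAPK2 was higher by 0.36 ± 0.09 (adjusted p = 0.0205), a call lost without mimic 1, mimic 4 or anti-miR 3 (adjusted p 0.0503 to 0.066). MAP3K4 was lower by 0.25 ± 0.08 (change of -0.25, adjusted p = 0.0463), a call lost in 13 of 24 alternatives, with adjusted p up to 0.168. Those alternatives include 9 single arrays: scramble 2, 3 and 4, mimic 1, 3 and 4, and anti-miR 1, 2 and 4. MAP3K11 (0.11, interval -0.12 to 0.35) and MAP2K3 (0.11, interval -0.10 to 0.31) did not pass.

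**Figure D3:**
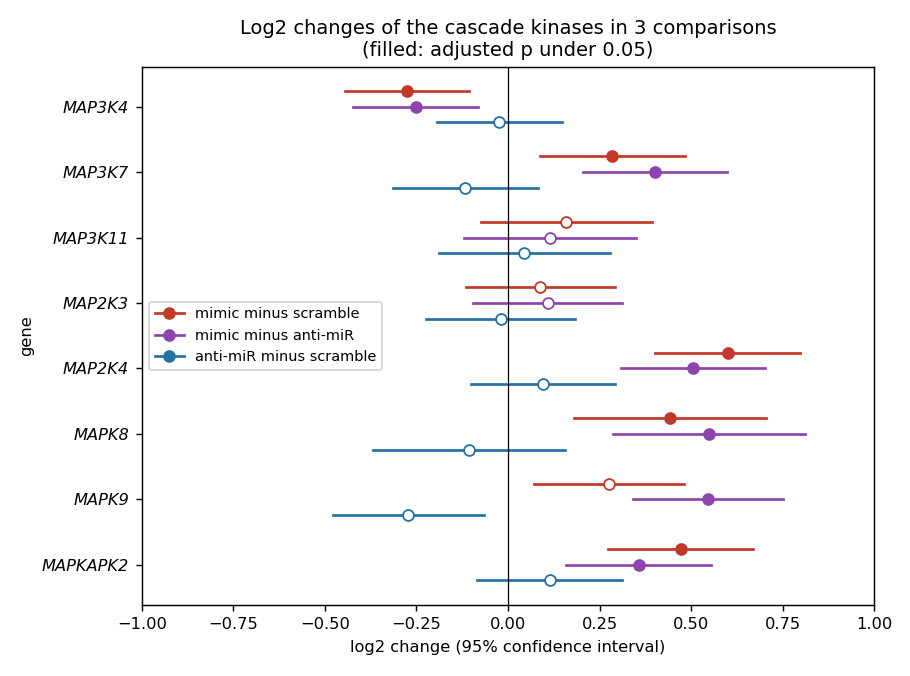
Log2 changes of the 8 measured cascade kinases (y axis) in 3 comparisons, with 95% confidence intervals from limma's moderated standard error; filled circles passed an adjusted p under 0.05. MAP2K4 and MAPKAPK2 lie to the right of 0 in both comparisons that involve the mimic, MAP3K4 lies to the left, and no anti-miR minus scramble value is filled.

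Within the mimic group the arrays that read highest differed between genes, and whether the 8 genes moved together was not tested. Averaged over the 8 genes, the log2 difference from the scramble mean was 0.31, 0.21, 0.19 and 0.32 on mimic arrays 1 to 4, and -0.00, -0.08, -0.11 and 0.05 on anti-miR arrays. The scramble arrays spanned -0.06 to 0.09 around their mean of 0. Mimic arrays 1 and 4 were the highest for MAP2K4, MAP3K7 and MAPK9, while mimic 3 and 4 were the highest for MAPKAPK2.

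Measured as the mean absolute difference over the 12 arrays, each gene taken minus its own scramble mean, the genes closest to MAP2K4 were PIP4K2A (0.05 log2 units), ZFYVE21 (0.07), KMT5A (0.08), SUSD1 (0.09) and PRPF38A (0.09). Among the cascade genes the closest were MAPKAPK2 (0.14, rank 83 of 11834 genes) and MAPK8 (0.17, rank 363), and the farthest was MAP3K4 (0.37, rank 8361). This is a description of likeness on 12 arrays that share 3 groups.

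The other isoform genes of the cascade showed a rise of 1 gene. MAPK13, the p38 delta gene, read 7.82, 7.94, 8.13 and 7.95 on mimic arrays, 7.85, 7.58, 8.02 and 7.97 on anti-miR arrays, and 7.41, 7.38, 7.59 and 7.67 on scramble arrays. Every mimic array and 3 of the 4 anti-miR arrays were above the highest scramble array. It rose under the mimic by 0.45 ± 0.11 (adjusted p = 0.0151), and the anti-miR change was 0.34 ± 0.11 (adjusted p = 0.165). Mimic and anti-miR differed by 0.10 ± 0.11 (adjusted p = 0.553). MAPK11 (p38 beta, -0.12), MAPK12 (p38 gamma, -0.04), MAPK10 (JNK3, -0.04) and MAP2K6 (MKK6, the other p38 activator, 0.15) did not pass under the mimic.

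Around the cascade, 82 of 110 further pathway genes in 8 roles were tested. Under the mimic 6 rose, 5 fell and 71 did not pass, so that 13.4% were called against 16.2% of all genes, and their median change was 0.01. Under the anti-miR 0 of the 82 were called by limma (18 at an unadjusted p under 0.05), and 1 or 2 were called in 4 of the alternative settings. Between mimic and anti-miR 10 were higher, 3 lower and 69 did not pass, 15.9% against 15% of all genes.

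Among 18 other MAP3K and MAP4K genes 0 rose and 2 fell under the mimic. MAP3K20 encodes ZAK, the MAP3K that senses stalled ribosomes. It read 8.27, 8.83, 8.40 and 8.11 on mimic arrays, 9.56, 9.51, 9.59 and 9.47 on anti-miR arrays, and 9.51, 9.19, 9.34 and 9.30 on scramble arrays. The mimic arrays were all lower than both other groups, with a change of -0.93 ± 0.13 against scramble (adjusted p = 0.00125) and -1.13 ± 0.13 against anti-miR (adjusted p = 0.000279). Its dimmer probes, detected on all 12 arrays, gave -0.24 and 0.07 against scramble and did not pass, so the change rests on 1 of 3 probes, and averaging the probes first gave -0.37. MAP3K12, which encodes the neuronal JNK activator DLK, fell by 0.51 ± 0.13 (change of -0.51, adjusted p = 0.0163), a call lost without mimic 4 (adjusted p = 0.0506). MAP3K6, the gene of a kinase related to ASK1, was lower under the mimic than under the anti-miR (-0.29 ± 0.09, adjusted p = 0.0422), a call lost in 12 of 24 alternatives (adjusted p up to 0.124), 8 of them single arrays of all 3 groups. Against scramble MAP3K6 gave -0.13 under the mimic and 0.16 under the anti-miR, and neither passed.

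Of 6 other effector kinase genes 1 rose and 1 fell under the mimic, and these encode a pair of related kinases. RPS6KA5, the gene of MSK1, which phosphorylates CREB and histone H3, read 7.02, 7.15, 6.57 and 7.07 on mimic arrays, against 7.82, 7.86, 7.77 and 7.53 on scramble arrays. The groups did not overlap, and the change was -0.79 ± 0.12 (adjusted p = 0.002). RPS6KA4, the gene of the related MSK2, rose by 0.42 ± 0.11 (adjusted p = 0.0176), although mimic 1 (7.18) was below scramble 4 (7.22) and the call was lost without scramble 1, scramble 2 or mimic 4 (adjusted p 0.0506 to 0.0561). Against the anti-miR, MKNK2 (0.69 ± 0.15, adjusted p = 0.0102) and MAPKAPK5 (0.39 ± 0.10, adjusted p = 0.0182) were higher and RPS6KA5 was lower (-0.74 ± 0.12, adjusted p = 0.00232). In the fit of all probes, dimmer probes of MKNK2 and MAPKAPK5 passed under the mimic against scramble as well, with 0.57 for MKNK2 (adjusted p = 0.00642) and 0.55 for MAPKAPK5 (adjusted p = 0.018), where the brightest probes gave 0.39 (adjusted p = 0.117) and 0.26 (adjusted p = 0.113). Under the anti-miR the brightest probes of MKNK2 and MAPKAPK5 gave -0.31 and -0.14 against scramble, and neither passed. MKNK2 encodes a kinase of the translation factor eIF4E, and the MAPKAPK5 call was lost without mimic 1 or mimic 4 (adjusted p 0.0626 and 0.0618).

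Of 17 transcription factor and substrate genes 2 rose under the mimic. JUN, the main nuclear substrate of JNK, read 9.26, 9.11, 9.37 and 9.33 on mimic arrays, 7.66, 7.96, 7.79 and 7.73 on anti-miR arrays, and 8.83, 8.19, 8.28 and 8.26 on scramble arrays. The 3 groups did not overlap. JUN rose under the mimic by 0.88 ± 0.13 (adjusted p = 0.0015), gave -0.60 ± 0.13 under the anti-miR (adjusted p = 0.0847) and differed between the reagents by 1.48 ± 0.13 (adjusted p = 0.000122). The anti-miR change passed in 4 of 24 alternatives (adjusted p 0.0283 to 0.0411). ELK4, a ternary complex factor gene, rose by 0.61 ± 0.13 (adjusted p = 0.00831), although its probe was detected on 4 of 4 mimic arrays and on 2 of 4 scramble arrays, so its scramble level of 5.13 ± 0.28 (SD, n = 4) lies partly at background. Its dimmer probe, detected on 5 arrays, gave -0.01 and the mean of its probes gave 0.30 (adjusted p = 0.116). DDIT3, the gene of the stress factor CHOP, a p38 substrate, was higher under the mimic than under the anti-miR (0.76 ± 0.20, adjusted p = 0.0225), a call lost without mimic 3, anti-miR 3 or anti-miR 4 (adjusted p up to 0.0617). Against scramble DDIT3 gave 0.40 under the mimic and -0.37 under the anti-miR, and neither passed.

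Of 12 phosphatase genes 2 rose and 2 fell under the mimic. DUSP2 rose by 0.71 ± 0.10 (adjusted p = 0.00125) and PPP2CB, a catalytic subunit gene of PP2A, by 0.48 ± 0.14 (adjusted p = 0.0352). Under the anti-miR their probes gave 0.36 (adjusted p = 0.142) and 0.14 (adjusted p = 0.676) in the fit of all probes. DUSP2 read 7.30, 7.49, 7.38 and 7.39 on anti-miR arrays, against 6.95, 7.12, 7.04 and 7.01 on scramble arrays. DUSP9 (-0.50 ± 0.13, adjusted p = 0.0185) and PPM1A (-0.52 ± 0.13, adjusted p = 0.0166) fell. In the fit of all probes the same probes gave -0.46 (adjusted p = 0.143) and -0.34 (adjusted p = 0.252) under the anti-miR, and -0.04 (adjusted p = 0.868) and -0.18 (adjusted p = 0.403) for mimic minus anti-miR. PPM1A has a dimmer probe that gave 0.74 (adjusted p = 0.0045 in the fit of all probes), so its direction differs between probes. The PPP2CB call was lost in 9 of 24 alternatives, 7 of them single arrays (all 4 scramble arrays and mimic 1, 3 and 4; adjusted p up to 0.1). The DUSP9 call was lost without mimic 1 or mimic 4 (adjusted p up to 0.0587), and the PPM1A call without scramble 1 or mimic 3 (adjusted p up to 0.0544). Against the anti-miR 4 of the 12 phosphatase genes were higher under the mimic and 0 lower, beside 7.85% and 7.19% of all genes. They were DUSP1 (0.52), DUSP22 (0.41), DUSP2 (0.35) and PPM1D (0.33). Against scramble PPM1D gave 0.01 under the mimic and -0.32 under the anti-miR. In the same order DUSP22 gave 0.19 and -0.23, DUSP1 0.37 and -0.15, and DUSP2 0.71 and 0.36. Of these changes against scramble only the DUSP2 rise under the mimic was called. DUSP22 was called in all 24 alternatives, but of its 3 probes kept the other two gave 0.53 (adjusted p = 0.00756) and -0.05 (adjusted p = 0.828) in the fit of all probes. The calls of DUSP1, DUSP2 and PPM1D were lost in 4 to 7 alternatives (adjusted p up to 0.0953). These were single arrays of both groups left out and, for DUSP2 and PPM1D, the fit of only the 2 groups compared and, for PPM1D, median scaling.

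Of 10 adaptor and activator genes 0 were called under the mimic, CDC42 among them (-0.21 ± 0.14, adjusted p = 0.319). In the fit of all probes a dimmer CDC42 probe, detected on all 12 arrays, gave 0.43 under the mimic (adjusted p = 0.0972). It gave 0.39 under the anti-miR (adjusted p = 0.287). Another, detected on 9 arrays, gave -0.11 under the mimic (adjusted p = 0.751), so the direction of CDC42 differed between probes. Of the same 10 only TRAF6, which encodes the ubiquitin ligase that activates TAK1, differed between mimic and anti-miR (0.46 ± 0.09, adjusted p = 0.00405). TRAF6 read 6.38, 6.39, 6.57 and 6.32 on mimic arrays, 5.91, 5.95, 5.90 and 6.06 on anti-miR arrays, and 6.15, 6.40, 6.35 and 6.36 on scramble arrays. The mimic and scramble arrays overlapped and the anti-miR arrays were the lowest. A dimmer TRAF6 probe gave 0.27 (adjusted p = 0.227 in the fit of all probes). Of 4 scaffold genes 0 were called in any comparison. Of 10 genes of the ERK and ERK5 arm 0 were called against scramble, and RPS6KA1, the gene of RSK1, was higher under the mimic than under the anti-miR (0.40 ± 0.08, adjusted p = 0.00824). Against scramble RPS6KA1 gave 0.08 under the mimic and -0.31 under the anti-miR.

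**Figure D4:**
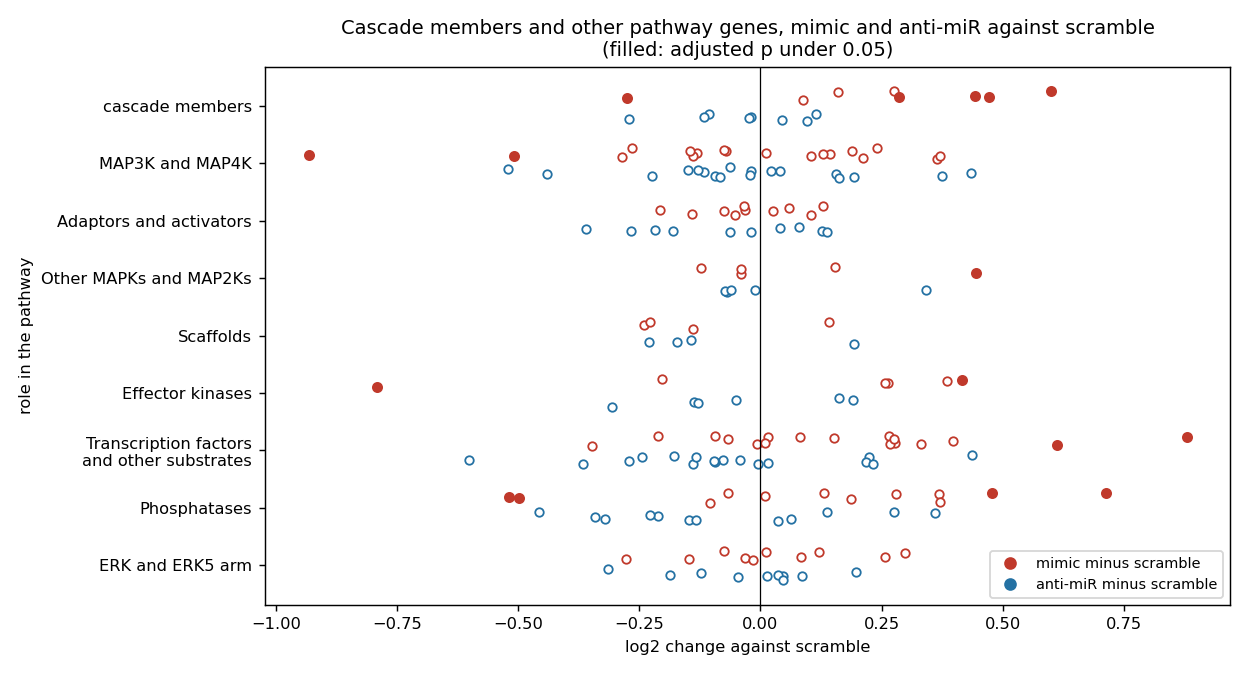
Log2 change against scramble (x axis) of the 8 cascade genes and 82 other pathway genes by role (y axis), for the mimic (red, upper row of each role) and the anti-miR (blue, lower row); filled circles passed an adjusted p under 0.05. Called genes of the other roles lie on both sides of 0 (6 higher and 5 lower under the mimic), and no anti-miR circle is filled.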

How the data were processed

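Total RNA was labelled as biotin cRNA for Illumina BeadChips, per the labels' protocols. The authors' deposited raw table holds mean signal intensity per probe and array and a detection p-value, per the file headers, with 0 columns unmatched. The deposited normalized table holds intensity brought to 1 distribution by an unstated method. Software and annotation are not given in the sources used here. Raw intensities were corrected with limma's normexp (detection p-values, offset 16), quantile normalized and taken to log2 (limma 3.58.1, R 4.3.3). Probes with a detection p under 0.05 on at least 4 of 12 arrays were kept (20768), and the brightest per gene was used. Names came from the platform annotation, updated through Entrez identifiers for 30074 of 30113 probes. A limma model with 1 mean per group gave 3 comparisons. Alternatives were 12 settings and 12 single arrays left out, these on the same normalized values. Named genes are the 10 members, ARHGAP1, CDC42, JUN, the isoform genes, up to 6 called genes per role and comparison, and the 5 genes closest to MAP2K4. Members and lists were chosen with earlier results of these data known. The number of arrays limits the precision.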

Additional observations from a re-analysis of the deposited data

Results flagged for a closer look

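In 3 of 111 groups of 4 arrays examined, 1 array stood apart from the other 3 by more than Dixon's limit for 4 values, and chance alone gives about 1 in 20. JUN was 8.83 log2 units on scramble 1, against 8.19 to 8.28 on the other scramble arrays. MAPKAPK5 was 9.40 on scramble 2, against 9.25 to 9.26 on the others. MAPK12 was 8.30 on scramble 1, against 8.55 to 8.59 on the others. No probe of the 8 measured cascade genes was among them.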

How the results depend on the processing

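Of 576 cascade gene changes recomputed under alternatives (8 genes, 3 comparisons, 24 alternatives each), 525 kept direction and side of the threshold, 40 lost the call, 4 gained it and 7 turned sign, the last all in uncalled anti-miR values near 0. The count of cascade genes called under the mimic was 5; it was 2 under median scaling and 2 to 5 with 1 array left out. Against the anti-miR it was 6, and 4 to 6 with 1 array left out. Counts over all genes with 1 array left out ran from 1094 to 2074 for mimic against scramble (1918 with all arrays), from 0 to 31 for anti-miR against scramble (22) and from 879 to 1849 for mimic against anti-miR (1780). Against scramble the mimic gave 1094, 1211 and 1176 without scramble 1, mimic 3 or mimic 4, and against the anti-miR 879 and 959 without mimic 1 or mimic 4. The anti-miR count was 0 or 1 without 9 of the 12 arrays, all 4 scramble arrays among them. Pathway genes called ran from 8 to 16 (11) and from 8 to 17 (13) for the mimic comparisons. Without background correction, with an offset of 50 and with a trended robust prior, 18, 19 and 17 pathway genes were called under the mimic and 1 each under the anti-miR; array weights gave 2 there. Anti-miR calls over all genes were 36 without background correction, 0 under median scaling, 11 from the deposited normalized table, 10 without the detection filter, 36 with every probe fitted, 0 with only both groups fitted, 57 with the trended prior, 99 with array weights and 2 with the replicate block. Median scaling moved the share of mimic calls that were rises to 34.6%, against 45.9%. Sign changes were PPM1A (0.021) and CDC42 (0.038) with the mean of probes, MAPK10 with array weights (0.032) and MAP3K11 (-0.018) and CDC42 (-0.0083) under median scaling. With 1 array left out, MAPK10 ran from -0.19 to 0.059 under the mimic; under the anti-miR MAP2K3 ran from -0.066 to 0.036, MAP3K4 from -0.062 to 0.0064, MAP3K11 from -0.047 to 0.11, CDC42 from -0.024 to 0.14, MAPK11 from -0.14 to 0.037, MAPK12 from -0.079 to 0.057 and MAP2K6 from -0.14 to 0.015. The cause of these shifts was not tested. In their deviations, differently numbered arrays of different groups correlated at -0.24 to 0.31. Same-numbered arrays correlated at -0.22 to 0.23, 2 of 12 pairs above 0.1. Of the 12 pairs, 3 correlated best with their own number. All of these lay between mimic and anti-miR, where arrays 1 to 4 gave 0.08, 0.14, 0.23 and 0.04. Same-numbered pairs with scramble gave -0.22 to 0.09. Whether the replicate number marks a shared batch was not tested. With the replicate block 4 cascade genes were called under the mimic (MAP3K7 at an adjusted p = 0.0582) and 5 against the anti-miR.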
